A study of Mus musculus with 6 samples.

Results

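A set of 10 genes of replication licensing and of the MCM helicase was followed in hematopoietic stem cells (HSCs) of mouse fetal liver, out of 38926 genes counted. The genes were taken by name, with earlier results of these data known: Mcm2, Mcm3, Mcm4, Mcm5, Mcm6 and Mcm7 for the helicase core, Cdc6 and Cdt1 for the loaders, and Mcm10 and Cdc45 for the activation of the loaded helicase. RNA was sequenced from 6 samples of HSCs sorted from E14.5 embryos, 3 of a control genotype and 3 of a knockout genotype, 1 of each from each of 3 litters. Controls were Vav-Cre; Dpy30F/+, with 1 floxed and 1 intact allele of Dpy30, and knockouts were Vav-Cre; Dpy30F/-, with 1 floxed and 1 null allele. Both genotypes carried Vav-Cre, a recombinase transgene active in blood-forming cells, so that controls were heterozygous wherever Cre had acted. Numbers 1 to 3 after a genotype name the litter. The labels do not say how many embryos were in a sample, so the p-values measure the spread between these samples.

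Replication is licensed when the origin recognition complex and Cdc6 sit on an origin and, with Cdt1, load the MCM2-7 ring onto DNA as an inactive double hexamer. Entry into S phase turns the ring into the active helicase by adding Cdc45 and the GINS complex, and Mcm10 takes part in this step and in unwinding. More MCM2-7 is loaded than is used in an S phase, and the surplus serves as reserve origins under replication stress, a role that has been studied in HSCs. Many of these genes are targets of E2F transcription factors. Dpy30 belongs to the shared core of the SET1/MLL enzymes, which place methyl groups on lysine 4 of histone H3, a mark of promoters.

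None of the 10 genes differed between genotypes past an adjusted p of 0.05. Dpy30, the targeted gene, did not pass either (edgeR adjusted p = 0.672). Mcm6, Mcm10 and Cdc6 had the clearest separation, with every knockout below every control, an order found in 7.74% of all genes tested. Mcm6 lost this order when scaled by library size only. The knockout mean was 65.5% of the control mean for Mcm6, 48.8% for Mcm10 and 49.2% for Cdc6. Mcm2 and Mcm7 had knockout means of 121% and 102% of control, and the remaining 5 genes had means between 74.8% and 92.4% of control with overlapping samples.

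Upstream sequences are shown for the 3 genes whose genotypes did not overlap and, for contrast, for Mcm2, the member with the most positive log2 fold change. They are RefSeq sequences on GRCm38.p6, read 5′ to 3′ in the direction of the gene and ending 1 base before the RefSeq start site. Capitals mark E2F words (TTTCCCGC, TTTCGCGC, TTTGCCGC or TTTGGCGC) and CCAAT, on either strand. Each holds 250 bases, except that Cdc6 is shown for the 169 bases that lie in no annotated exon. The Cdc6 gene starts at 98907801 in the GENCODE M21 annotation. Its sequence here lies inside that gene and is upstream of the RefSeq start only.
Mcm6, chr1:128359706-128359955, minus strand: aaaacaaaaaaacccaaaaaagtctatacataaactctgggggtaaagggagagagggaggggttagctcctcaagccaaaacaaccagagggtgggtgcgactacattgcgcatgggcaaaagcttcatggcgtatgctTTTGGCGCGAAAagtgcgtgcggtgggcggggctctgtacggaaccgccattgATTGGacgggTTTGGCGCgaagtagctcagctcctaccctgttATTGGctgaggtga
Mcm10, chr2:5012792-5013041, minus strand: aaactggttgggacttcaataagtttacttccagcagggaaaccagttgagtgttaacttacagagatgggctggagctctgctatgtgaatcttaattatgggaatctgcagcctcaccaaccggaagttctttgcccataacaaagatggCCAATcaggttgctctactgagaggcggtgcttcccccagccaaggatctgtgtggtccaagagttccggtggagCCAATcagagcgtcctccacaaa
Cdc6, chr11:98907982-98908150, plus strand: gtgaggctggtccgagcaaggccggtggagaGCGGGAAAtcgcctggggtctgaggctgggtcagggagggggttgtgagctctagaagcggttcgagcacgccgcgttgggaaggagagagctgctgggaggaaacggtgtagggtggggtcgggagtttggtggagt
Mcm2, chr6:88898781-88899030, minus strand: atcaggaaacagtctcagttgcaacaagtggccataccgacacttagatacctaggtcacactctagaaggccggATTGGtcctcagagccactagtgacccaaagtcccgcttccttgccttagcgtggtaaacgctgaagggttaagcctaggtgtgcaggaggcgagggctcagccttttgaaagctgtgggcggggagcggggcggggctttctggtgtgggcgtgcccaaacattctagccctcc
In the Mcm6 sequence the first 2 E2F words overlap, at 110 to 103 bases and, on the opposite strand, at 106 to 99 bases before the start. A further E2F word stood at 47 to 40 bases, and CCAAT words at 57 to 53 and 14 to 10 bases. Mcm10 held 2 CCAAT words and no E2F word, Cdc6 held 1 E2F word at 138 to 131 bases and no CCAAT, and Mcm2 held 1 CCAAT at 175 to 171 bases. Over the 250 bases before the start, an E2F word was in 4 of 10 windows for 9 of the members (Mcm5, Mcm6, Mcm7 and Cdc6) and in 1.86% of the 32851 windows of all genes. CCAAT was in 8 of the 10 and in 33.8% of all windows. By GENCODE M21 the windows of Mcm7 and Cdc6 lie inside these genes. The Mcm7 window with the E2F word lies wholly in annotated exons. Promoters with and without an E2F word were thus found both among the 3 genes that separated the genotypes and among the others. A word match is a description of letters and not of a bound site. No window was matched for Mcm4.

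Libraries gave 31897737 to 43394700 counts on genes, of which 49.2% to 67.7% were mitochondrial, and 13972 to 17241 genes had at least 1 count. Total counts did not separate the genotypes (two-sided exact permutation p = 0.2, where 0.1 is the smallest that 3 against 3 can give). Levels are counts per 1000000 (CPM) after scaling by trimmed mean of M values (TMM). Control 1, the library with 67.7% mitochondrial counts, had the lowest TMM factor, at 0.747 against 0.990 to 1.25 in the others. Dpy30 itself had 24.6, 24.2 and 31.6 CPM in controls 1 to 3 and 7.93, 5.95 and 13.7 CPM in knockouts 1 to 3. All 10 members passed the filter on low counts. Their lowest count was 112, for Cdc45 in knockout 3 (95% exact Poisson interval 92.2 to 134.8, for the counting of reads only). The error from counting reads was small beside the spread between samples. The interval does not cover the sampling of RNA before sequencing, which was not measured here.

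The labelled cell type was checked against markers. Kit, Hlf, Mecom, Procr and Slamf1, genes of HSCs and early progenitors, were detected in all 6 samples, whereas Ly6a was at 0 in control 3. Slamf1 was down to 18 counts (0.51 CPM) in knockout 3, against 6.59 to 15.6 CPM in the other 5 samples. Cd48, which HSCs lack, was at 0 in knockout 3 and at 2 to 162 counts in the other 5. Knockout 3 stood apart, with 27.2 CPM of Hlf against 145.8 to 229.9 CPM in the other 5 samples and 11.6 CPM of Mecom against 70.2 to 147.4 CPM. Its summed macrophage markers came to 1703 CPM and its granulocyte and monocyte markers to 399 CPM, the highest of the 6 samples. Several values are therefore also given without it.

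The comparison of knockout with control addressed whether RNA of the licensing machinery depends on Dpy30. Across the 13646 genes tested by edgeR's quasi-likelihood test, 0 passed an adjusted p of 0.05 (0.0% of genes), 888 had an unadjusted p under 0.05 (6.51%), and DESeq2 called 138 (1.03% of those with an adjusted p), none of them a member. Of the 10 members, 3 had an unadjusted p under 0.05, all of them lower in the knockout, where 2.24% of all genes tested were lower and 4.26% higher at that level. Leaving out control 1, the library with the lowest TMM factor, took the unadjusted p of all 3 above 0.05. Leaving out knockout 1 took those of Mcm10 and Cdc6 above it, and leaving out control 2 or knockout 3 took that of Cdc6. With mitochondrial features removed, all 3 stayed under 0.05. The same 3 had every knockout below every control, an order found in 7.74% of all genes tested, and no member had every knockout above every control, an order found in 6.39%. The median log2 fold change, knockout over control, was -0.39 over the members and 0.01 over all genes tested. The members' median was -0.24 without knockout 3, -0.70 without knockout 2 and -0.20 when scaled by library size only. The median over all genes tested was -0.01, -0.03 and 0.23 in those settings. In RNA of sorted samples, fewer cycling cells and less RNA per cycling cell cannot be told apart.

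**Figure D1:**
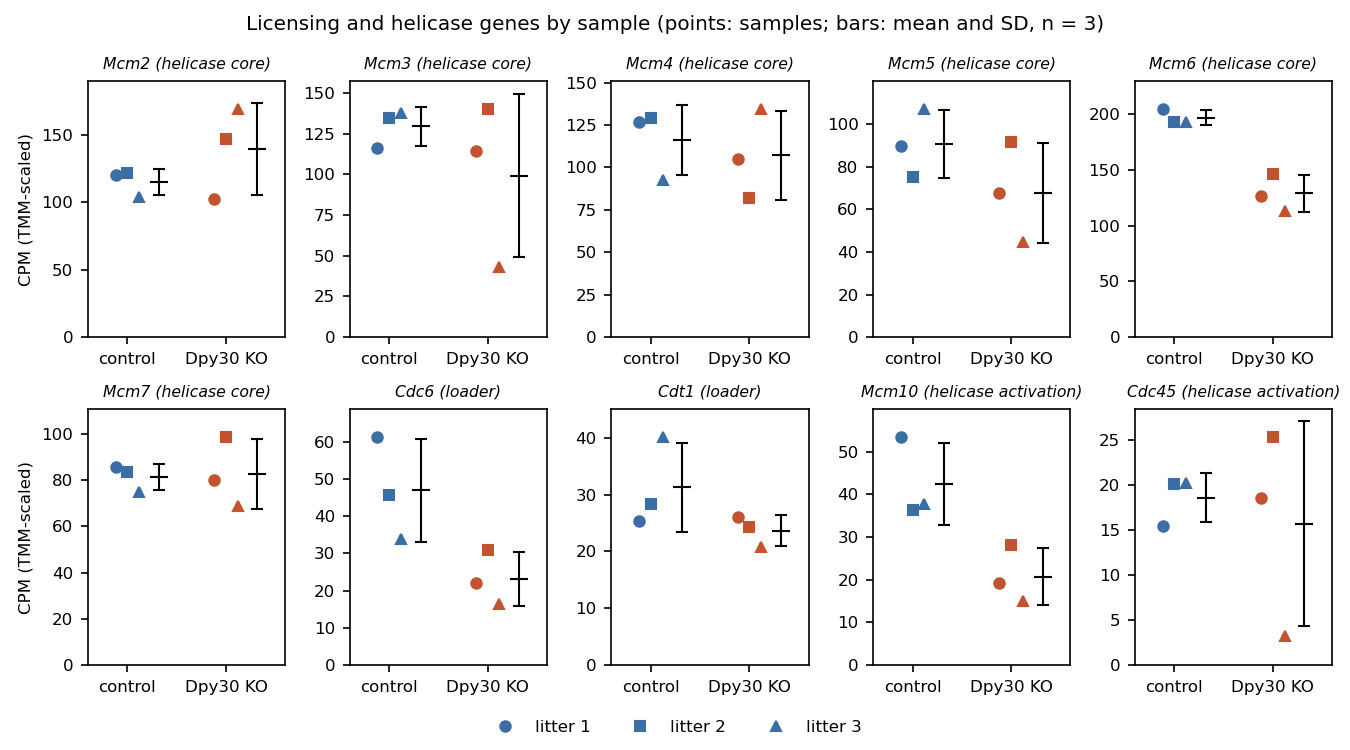
CPM (TMM-scaled, vertical axes from 0) of each of the 10 genes in the 3 control and 3 Dpy30 knockout samples. Symbols mark litters, and black bars give the mean and SD (n = 3). Mcm6, Cdc6 and Mcm10 show no overlap between genotypes, and knockout 3 lies far below the other samples for Mcm3 (43.1 CPM) and Cdc45 (3.20 CPM).

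Mcm6 (chromosome 1, 128331590 to 128359664, GRCm38), a subunit of the ring, had the highest level of the helicase core in controls. It had 204.5, 192.9 and 192.3 CPM in controls 1 to 3 and 126.8, 146.4 and 112.9 CPM in knockouts 1 to 3. The controls lay close together and the highest knockout was well below them. The means were 197 ± 6.87 and 129 ± 16.8 CPM (SD, n = 3 each), with a log2 fold change of -0.61 (SE 0.20; edgeR unadjusted p = 0.0155, adjusted p = 0.709). Adjusted p under the 16 other settings ranged from 0.315 to 1.00. Scaled by library size only, the log2 fold change was -0.40 and the genotypes overlapped, in a scaling that moved the median of all genes by 0.21.

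The other 5 core subunits did not separate the genotypes. Mcm2 (chromosome 6, 88883474 to 88898780), whose protein has a histone-binding tail, had 119.9, 121.4 and 104.1 CPM in controls and 102.6, 146.8 and 169.1 CPM in knockouts 1 to 3. Knockout 1 was the lowest of the 6 samples and knockout 3 the highest (log2 fold change 0.28, SE 0.24; edgeR adjusted p = 0.891), and the log2 fold change was 0.13 without knockout 3 and 0.45 without knockout 1. Mcm3 (chromosome 1, 20802968 to 20820312), whose end contacts Cdc6 and the origin recognition complex in yeast, had 115.9, 134.6 and 137.9 CPM in controls and 114.3, 140.2 and 43.1 CPM in knockouts. Knockouts 1 and 2 lay at the control level and knockout 3 far below it, so that the log2 fold change of -0.38 (SE 0.40) became -0.01 without knockout 3. Mcm5 (chromosome 8, 75109569 to 75128439), which forms the gate of the ring with Mcm2, had 89.7, 74.9 and 107.0 CPM in controls and 67.6, 91.4 and 44.4 CPM in knockouts. Here too knockout 3 was lowest, and the log2 fold change was -0.42 (SE 0.31), or -0.18 without that sample.

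Mcm4 (chromosome 16, 15623897 to 15637400) belongs with Mcm6 and Mcm7 to the part of the ring with the strongest helicase activity in isolation. It had 126.9, 129.0 and 92.4 CPM in controls and 105.2, 82.1 and 134.5 CPM in knockouts 1 to 3. The order of the litters was opposite in the 2 genotypes and the groups overlapped fully (log2 fold change -0.11, SE 0.26, or -0.30 without knockout 3). Mcm7 (chromosome 5, 138164583 to 138172422) had 85.7, 83.7 and 74.8 CPM in controls and 80.3, 98.9 and 68.8 CPM in knockouts, with the highest and the lowest of the 6 values both in knockouts (log2 fold change 0.02, SE 0.23, or 0.15 without knockout 3). Its introns hold the hairpins of Mir25, Mir93 and Mir106b, which were each listed at 0 counts in every sample of these poly(A)-selected libraries.

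Some of these counts could be affected by neighbouring genes, since the strandedness of the counting is not given in the sources used here. In GENCODE M21, Mcm7 overlaps Ap4m1 by 421 bases and Cops6 by 64 bases, both on the other strand, and Cdc45 overlaps Ufd1 by 209 bases. Cops6, a COP9 signalosome subunit, had every knockout above every control, with 32.1, 37.0 and 33.5 CPM in controls 1 to 3 and 41.1, 58.0 and 69.1 CPM in knockouts 1 to 3 (log2 fold change 0.71, SE 0.29; edgeR adjusted p = 0.758). Mcm4 starts 466 bases from Prkdc, the DNA-dependent protein kinase gene, on the opposite strand and without overlap. Prkdc had 54.5, 74.3 and 51.6 CPM in controls and 75.4, 54.4 and 50.7 CPM in knockouts, so that neither gene of the pair separated the genotypes. The Cdt1 gene lies inside the model Gm20388, which was listed at 0 counts in every sample.

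Among the loaders, Cdc6 (chromosome 11, 98907801 to 98923940), the ATPase that joins the origin recognition complex to receive the ring, separated the genotypes. It had 61.4, 45.7 and 33.8 CPM in controls 1 to 3 and 22.0, 30.9 and 16.5 CPM in knockouts 1 to 3. All knockouts were below all controls, but control 3 and knockout 2 lay close together. The means were 47.0 ± 13.9 and 23.1 ± 7.29 CPM (SD, n = 3 each), with a log2 fold change of -1.02 (SE 0.38; edgeR unadjusted p = 0.0267, adjusted p = 0.729). Within litters the log2 difference was -1.48, -0.56 and -1.03. Without control 1 the log2 fold change was -0.78 (edgeR unadjusted p = 0.122), and without knockout 3 it was -0.82 (edgeR unadjusted p = 0.0560).

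Cdt1 (chromosome 8, 122568015 to 122573554), which brings the ring to Cdc6 and is destroyed in S phase, had 25.3, 28.3 and 40.2 CPM in controls 1 to 3 and 26.0, 24.2 and 20.7 CPM in knockouts 1 to 3. The highest knockout was just above the lowest control. The means were 31.3 ± 7.87 and 23.6 ± 2.72 CPM (SD, n = 3 each), with a log2 fold change of -0.40 (SE 0.34; edgeR adjusted p = 0.884). The controls differed in opposite ways for the 2 loaders: control 1 had the most Cdc6 and the least Cdt1, and control 3 the reverse.

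Of the activation factors, Mcm10 (chromosome 2, 4989714 to 5012791) had 53.5, 36.2 and 37.7 CPM in controls 1 to 3 and 19.1, 28.1 and 15.0 CPM in knockouts 1 to 3. No knockout reached the lowest control. The means were 42.5 ± 9.58 and 20.7 ± 6.69 CPM (SD, n = 3 each), with a log2 fold change of -1.04 (SE 0.37; edgeR unadjusted p = 0.0226, adjusted p = 0.729), which was -0.84 without knockout 3 and -0.83 without control 1 (edgeR unadjusted p = 0.102). Cdc45 (chromosome 16, 18780447 to 18811987), the partner of MCM and GINS in the active helicase, had 15.4, 20.1 and 20.2 CPM in controls and 18.6, 25.4 and 3.20 CPM in knockouts. Knockouts 1 and 2 were within or above the control range and knockout 3 was far below it. The log2 fold change of -0.24 (SE 0.69) turned to 0.25 without knockout 3.

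The helicase core was next set against the loaders inside each sample, so that library scaling bears little on the comparison. The mean log2 CPM of Mcm2 to Mcm7 exceeded that of Cdc6 and Cdt1 by 1.59, 1.70 and 1.61 in controls 1 to 3 and by 2.02, 2.06 and 2.17 in knockouts 1 to 3. All 3 knockouts were above all 3 controls, and the spread within a genotype was small beside the gap. From control 1 to control 3, however, the excess over Cdc6 alone rose from 0.95 to 1.73. That over Cdt1 alone fell from 2.23 to 1.49, so that the mean of both loaders varied less than either. Against Cdt1 alone the genotypes overlapped. Controls had a mean excess of 1.63 ± 0.06 and knockouts of 2.09 ± 0.08 (SD, n = 3 each), and the gap within litters was 0.43, 0.36 and 0.56. No p is given for this score, because the genes in it were chosen with results of these data known.

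Both sides of the score had lower means in the knockouts, and for the core the samples overlapped. The mean over the core was 6.86 ± 0.04 log2 CPM (SD, n = 3) for control samples and 6.61 ± 0.23 for knockout samples, and the mean over the loaders was 5.23 ± 0.07 and 4.52 ± 0.29. In the fit across all genes, the mean log2 fold change was -0.20 for the core and -0.71 for the loaders, a difference of 0.51, which was 0.44 without knockout 3. Without that sample the median log2 fold change was -0.095 for the core, against -0.25 with it, and -0.56 for the loaders, against -0.71. The 2 loaders did not contribute alike. Against Cdc6 alone, the excess of the core was 0.95, 1.36 and 1.73 in controls and 2.14, 1.88 and 2.34 in knockouts, with no overlap. Against Cdt1 alone it was 2.23, 2.04 and 1.49 in controls and 1.90, 2.24 and 2.01 in knockouts, with overlap. Mcm10, which is no loader, gave an excess of 1.15, 1.69 and 1.58 in controls and 2.34, 2.02 and 2.48 in knockouts, also without overlap.

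**Figure D2:**
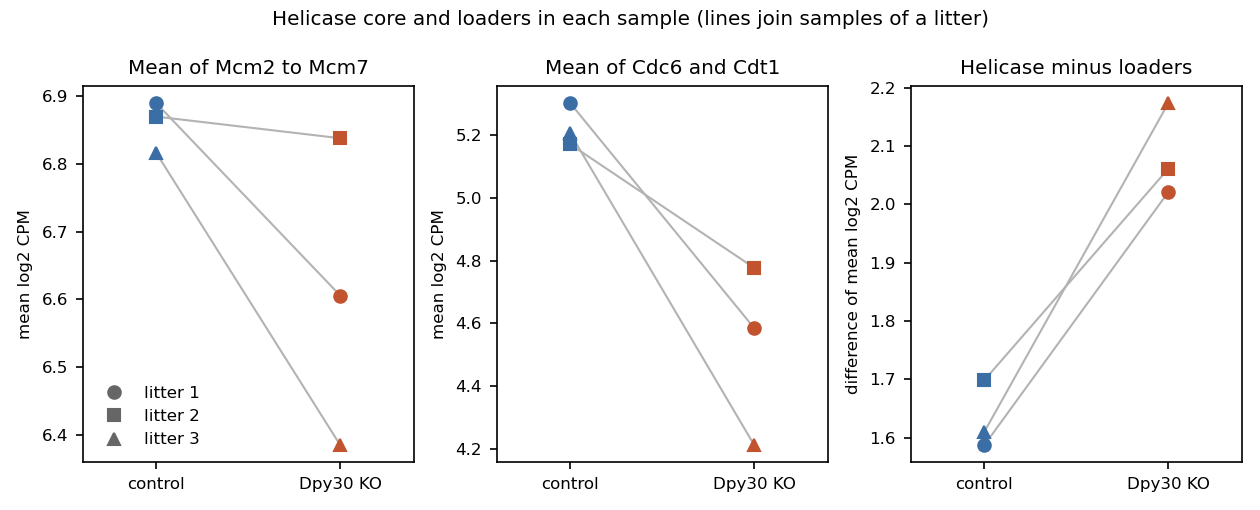
Mean log2 CPM of the 6 core subunits (left), of Cdc6 and Cdt1 (middle) and the difference of both means (right) in each sample. Symbols and grey lines mark litters, and the axes do not start at 0. The difference lies between 1.59 and 1.70 in controls and between 2.02 and 2.17 in knockouts.

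The 6 core subunits form a ring with 1 copy of each, so their RNA levels were also compared per length, as CPM per kb. The length was that of the longest protein-coding transcript with a CCDS (consensus coding sequence) tag. In controls Mcm6 was highest at 45.1 ± 1.58, followed by Mcm3 at 42.7 ± 3.92, Mcm2 at 34.2 ± 2.85, Mcm4 at 32.4 ± 5.73, Mcm7 at 27.5 ± 1.96 and Mcm5 at 26.8 ± 4.75 (SD, n = 3 each). Among neighbours in this order the samples overlapped, except that every value of Mcm3 was above every value of Mcm2. Both loaders and both activation factors were lower, with Cdt1 at 14.3 ± 3.60, Cdc6 at 10.2 ± 3.00, Mcm10 at 8.73 ± 1.97 and Cdc45 at 8.67 ± 1.28. With all annotated exons of a gene as its length, Mcm6 stayed at rank 1 and Mcm2 moved from rank 3 to rank 6.

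In the knockouts the order by mean was Mcm2 at 41.4 ± 10.04, Mcm3 at 32.7 ± 16.6, Mcm4 at 29.9 ± 7.32, Mcm6 at 29.6 ± 3.86, Mcm7 at 27.9 ± 5.13 and Mcm5 at 20.05 ± 6.94 CPM per kb (SD, n = 3 each). Mcm6 thus stood at rank 1 in controls and rank 4 in knockouts by this length. By all annotated exons it stood at rank 2 in knockouts, with Mcm4 at rank 1 and Mcm2 at rank 4. By the first length the samples of each neighbouring pair in the knockout order overlapped. The subunit with the highest level exceeded that with the lowest by 1.77, 2.00 and 1.80 times in controls 1 to 3, by 1.89 and 2.02 times in knockouts 1 and 2, and by 3.82 times in knockout 3. By this fold, knockouts 1 and 2 were close to the controls and knockout 3 was wider. The subunits' log2 deviations from their control means had an SD of 0.10, 0.15 and 0.20 in controls 1 to 3, which are part of those means, and of 0.22, 0.36 and 0.80 in knockouts 1 to 3. The ratio of Mcm2 to Mcm3 in CPM was 1.03, 0.902 and 0.755 in controls, 0.897 and 1.05 in knockouts 1 and 2, and 3.92 in knockout 3.

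**Figure D3:**
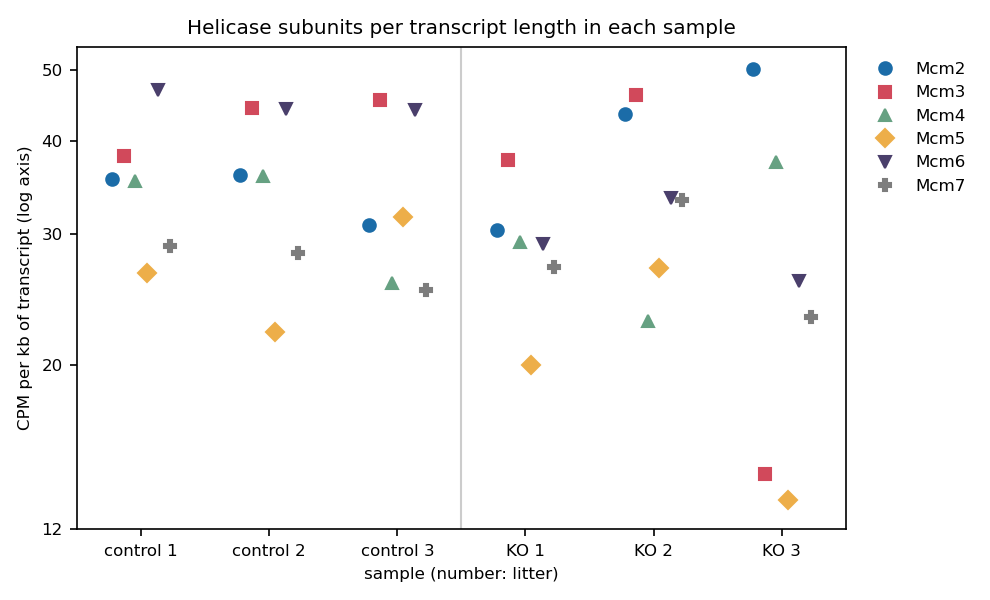
CPM per kb of transcript (log axis) for the 6 core subunits in each of the 6 samples, with symbols for subunits. Mcm6 lies at 44.2 to 46.9 in controls and at 25.9 to 33.6 in knockouts, and in knockout 3 Mcm3 and Mcm5 lie at 14.2 and 13.1 while Mcm2 lies at 50.2.

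Core subunits did not all vary alike between controls. The median SD of log2 CPM was 0.13 over the 6 subunits in controls and 0.36 in knockouts, against 0.30 and 0.53 over the 5044 genes within the members' range of expression. That range reaches down to the level of Cdc45, below every core subunit, so that these genes are not matched to the core by level. Mcm6 had an SD of 0.05 in controls, and 2.60% of those genes had a lower one. Mcm4 and Mcm5 had SDs of 0.27 and 0.26 in controls, and 44.2% and 41.0% of those genes had lower ones. Cdc45 had an SD of 1.60 in knockouts, and 96.8% of those genes had a lower one.

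Genes that work beside the members were taken from lists by function. The origin recognition complex, on which loading starts, showed a median of 0.00 for the log2 fold change over its 6 genes, or 0.075 without knockout 3. Orc5 was the exception, with 20.9, 19.9 and 28.3 CPM in controls and 12.96, 8.21 and 6.34 CPM in knockouts 1 to 3, which did not overlap (log2 fold change -1.33, SE 0.47; edgeR adjusted p = 0.729). Orc1, the subunit whose level varies through the cell cycle, had overlapping samples and a log2 fold change of 0.58 (SE 0.64). Over 7 tested genes for licensing inhibitors and Cdt1 turnover the median was -0.21, or -0.028 without knockout 3, and none had an unadjusted p under 0.05 in edgeR. Among these, Gmnn, which encodes the Cdt1 inhibitor geminin, had 26.0, 21.1 and 22.4 CPM in controls and 13.2, 17.6 and 16.2 CPM in knockouts, again without overlap (log2 fold change -0.56, SE 0.37; edgeR adjusted p = 0.849). Cul4a, of the ligase that marks Cdt1 for destruction, had a log2 fold change of -0.57 (SE 0.34) with overlapping samples.

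The other MCM proteins and partners had a median of -0.40 over 4 genes, or -0.20 without knockout 3, and none had an unadjusted p under 0.05 or separated the genotypes. Mcm8, of a helicase used in recombination, had a log2 fold change of -0.72 (SE 0.57), and Mcmbp, which binds MCM proteins, had 0.35 (SE 0.27).

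Origin firing genes turn the loaded ring into the active helicase. Their median log2 fold change over 12 genes was -0.47, or -0.54 without knockout 3. With all samples, 3 of the 12 were above 0 and 9 below (6719 of 13646 over all genes tested). Of the 12, 5 had every knockout below every control (7.74% of all genes tested). In edgeR 3 had an unadjusted p under 0.05, all lower (2.24% of all genes). Cdc7, the kinase that phosphorylates the loaded ring, had 33.7, 26.9 and 29.5 CPM in controls 1 to 3 and 11.0, 2.04 and 15.3 CPM in knockouts 1 to 3. Its activator Dbf4 had 48.2, 38.1 and 50.01 CPM in controls and 35.8, 25.5 and 36.5 CPM in knockouts. Neither overlapped between genotypes, with log2 fold changes of -1.67 (SE 0.68) for Cdc7 and -0.48 (SE 0.30) for Dbf4 (edgeR adjusted p = 0.753 and 0.844). Donson, which helps to bring GINS to the ring, had 16.4, 13.3 and 13.7 CPM in controls and 8.93, 3.22 and 3.23 CPM in knockouts (log2 fold change -1.50, SE 0.63). Wdhd1, which ties the helicase to DNA polymerase alpha, had 80.8, 70.8 and 78.9 CPM in controls and 51.8, 53.9 and 41.6 CPM in knockouts (log2 fold change -0.65, SE 0.24). Mtbp, a partner of the firing factor treslin, had the highest log2 fold change of the list at 0.84 (SE 0.54), with overlapping samples. The fifth gene without overlap was the GINS subunit gene Gins2, with a log2 fold change of -1.13 (SE 0.50). None of the list passed (lowest edgeR adjusted p = 0.729).

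Replication fork genes had a median of -0.08 over 24 tested genes, with 6 above 0 and 18 below (6719 of 13646 over all genes tested). That median was 0.021 without knockout 3 and -0.31 with litter as a block, where the median over all genes tested was -0.01 and -0.12. Rpa2, of the protein that coats single-stranded DNA, had 37.5, 43.8 and 41.5 CPM in controls and 26.5, 26.8 and 17.2 CPM in knockouts without overlap (log2 fold change -0.80, SE 0.32; edgeR adjusted p = 0.753). Pole2, of DNA polymerase epsilon, had a log2 fold change of -1.45 (SE 0.74) with overlapping samples. In all, 5 fork genes had every knockout below every control (7.74% of all genes tested). In edgeR 1 was lower at an unadjusted p under 0.05 (2.24% of all genes tested). Fen1 and Pold4 did not pass the filter on low counts, at 119 counts or fewer in every sample.

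Genes of cycling cells outside licensing had a median of -0.40 over 14 genes, or -0.33 without knockout 3. With all samples, all 14 had a negative log2 fold change (6719 of 13646 over all genes tested). Cdc20, an activator of the anaphase-promoting complex, had 35.4, 24.9 and 32.6 CPM in controls and 8.35, 13.9 and 4.03 CPM in knockouts without overlap (log2 fold change -1.82, SE 0.52; edgeR adjusted p = 0.668). It was the 1 gene of the 14 with an unadjusted p under 0.05 in edgeR (2.24% of all genes were lower at that level). Ccna2, the S phase cyclin, had a log2 fold change of -0.43 (SE 0.25), and Mki67, the proliferation marker, of -0.13 (SE 0.29), both with overlapping samples. A difference between the members and these lists was not tested.

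**Figure D4:**
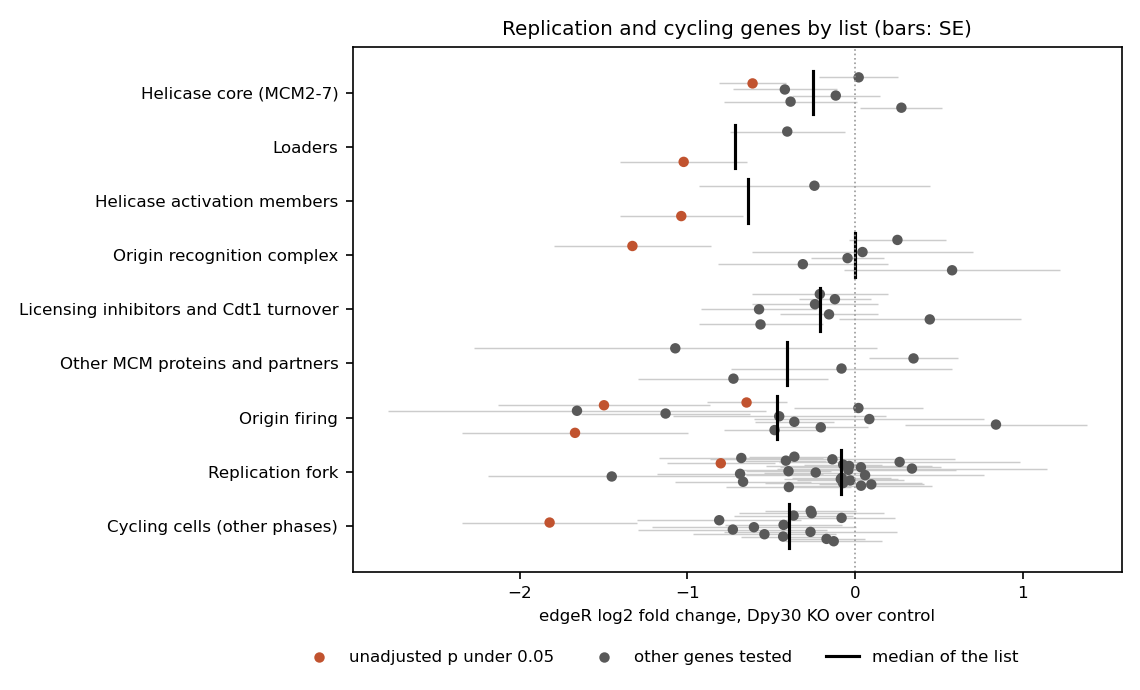
edgeR log2 fold change of each tested gene, knockout over control, by list, with SE as horizontal bars and the list median as a black line. Orange points have an unadjusted p under 0.05, and none passed after adjustment. The medians are -0.25 for the core, -0.71 for the loaders, 0.00 for the origin recognition complex and -0.47 for origin firing.

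Markers of other cell types are given here as summed CPM. Macrophage markers came to 347 to 590 in controls and 345 to 1703 in knockouts, and 4 of 10 had every knockout above every control (6.39% of all genes tested). Granulocyte and monocyte markers came to 46.6 to 126.6 and 71.3 to 399, erythroid markers to 1096 to 2110 and 864 to 2595, and markers of megakaryocytes and mast cells to 82.3 to 120.0 and 113 to 153. Lymphoid markers came to 1.62 to 8.69 in controls and 4.93 to 20.4 in knockouts. Hepatocyte markers stayed at or below 21.9 in every sample, and Cd3e, Cd3g and Fcer1a were at 0 in all 6. HSC and progenitor markers came to 712 to 730 in controls and to 954, 1136 and 380 in knockouts 1 to 3. Single macrophage markers differed within a sample. In knockout 2 Csf1r, C1qb, Cd68 and Lyz2 were above every control, at 92.4, 30.9, 23.7 and 113.8 CPM, while Mrc1 and Vcam1 were below every control, at 26.4 and 2.32 CPM. DESeq2 called 3 of 10 macrophage, 1 of 12 HSC and progenitor, 1 of 10 erythroid and 1 of 3 tested lymphoid markers. No marker of the other lists was called, and 1.03% of all genes with an adjusted p were. The macrophage markers' median log2 fold change was 2.15, or 1.43 without knockout 3. The part of these cells in the members' values was not tested.

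Outside the lists, the genes whose log2 CPM followed the mean of Mcm2 to Mcm7 most closely over the 6 samples were Pdha1, Ywhaz, Nup210, Nasp, Tbl1xr1 and Kpna4, with Pearson r from 0.981 to 0.994 among 2944 genes with a mean of at least 5 log2 CPM. Nasp encodes a histone chaperone, Nup210 a nuclear pore protein and Kpna4 an importin. The likeness is a description over 6 points that share libraries, in which knockouts 3 and 1 are low. Nasp, for example, had 152.4, 136.6 and 144.2 CPM in controls and 104.2, 134.6 and 74.1 CPM in knockouts.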

How the data were processed

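Poly(A)-selected RNA of sorted fetal liver HSCs was sequenced in 3 control and 3 knockout samples, grouped by the genotype label. Raw whole-number counts of reads by gene symbol were deposited by the authors, 1 table a sample, with 5 closing tallies of reads given to no gene (41.0% to 51.0% of reads), which were left out. The submitters' processing notes list mm10, CASAVA 1.8.4, TopHat2, Picard 1.126, HTSeq 0.6.0, DESeq and bedtools 2.17.0, with no role or order. The annotation and strandedness are not given in the sources used here. Reads with more than 1 alignment were tallied apart and not given to genes.

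Genes were kept by edgeR's filterByExpr (13646 of 38926), scaled by TMM and tested with edgeR's quasi-likelihood F test (edgeR 4.0.16, R 4.3.3), with Benjamini-Hochberg adjustment over all genes tested and a threshold of 0.05. Each SE was obtained by dividing the log2 fold change by the root of its F statistic. Log2 CPM used a prior count of 2. DESeq2 1.42.0 and limma-voom (limma 3.58.1) were run as alternatives, 16 settings in all. The code was run on simulated data with less spread between samples than here, where edgeR's common biological coefficient of variation was 0.82. That run therefore does not show how many true differences would be found in these data. Litter numbers pair the samples by the labels, and correlations of same-litter deviations were -0.02, -0.08 and 0.00 in litters 1 to 3. Coordinates, overlaps and lengths come from GENCODE M21 (GRCm38) and upstream sequences from RefSeq (GRCm38.p6). The members and lists were chosen with earlier results of these data known. All 10 members were named, with the 2 smallest p of each other replication or cycling list and any gene with an unadjusted p under 0.05. Genes overlapping a member or sharing its promoter, and the 6 genes most like the mean of Mcm2 to Mcm7, were also named. Dbf4, Gins2, Mtbp, Mki67 and the single HSC and macrophage markers with values were named after their values were seen.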

Additional observations from a re-analysis of the deposited data

How the results depend on the processing

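The count of genes past the threshold was 0 in edgeR and stayed at 0 under each scaling, limma-voom, the removal of mitochondrial features and every omission of 1 sample. It was 1 without a filter on low counts, 1 with at least 10 counts in every sample, 138 in DESeq2 and 277 in DESeq2 with litter as a block, a setting added after seeing the data. With the replicate block in edgeR, 0 genes passed and 619 had an unadjusted p under 0.05; no member passed under any setting. The block gave log2 fold changes of -0.62 for Mcm6, -1.06 for Mcm10 and -1.03 for Cdc6 and changed no call. The difference between core and loaders stayed positive, from 0.44 to 0.56 on omitting 1 sample and 0.50 when scaled by library size only. The median of the 10 members ranged from -0.70 to -0.24 on omitting 1 sample, the lower value without knockout 2 and the higher without knockout 3, and was -0.20 when scaled by library size only. The 3 members at an unadjusted p under 0.05 became 0 when scaled by library size only, and 0 to 3 on omitting 1 sample, with 0 without control 1 and 1 without knockout 1. Scaling by library size only moved the median of all genes by 0.21 and upper-quartile scaling by -0.12. Signs turned for Mcm4 (0.10 when scaled by library size only, -0.30 to 0.046 on omitting 1 sample), Mcm7 (-0.090 under upper-quartile scaling, -0.13 to 0.15) and Cdc45 (-0.77 to 0.25). Every knockout lay below every control for 3 members with all samples (7.74% of all genes tested), for 3 to 5 on omitting 1 sample (11.7% to 18.0%) and for 2, Mcm10 and Cdc6, when scaled by library size only (4.06%). The cause of these shifts was not tested.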
